A study of Mus musculus with 14 samples.

Results

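The sites described here are the CTCF peaks at 40 imprinted genes of the mouse, which lie in 17 clusters. Overlapping peaks of 8 CTCF peak lists were joined into 86652 sites. A site was taken as imprinted when it overlapped a listed gene body or lay within 20 kb of it in mm10, which gave 163 sites. At least 1 site was found at 37 of the 40 genes. The genes Kcnq1ot1, Ndn and Zdbf2 had 0 sites in or near their bodies. Peaks of H3K27ac, a histone mark of active promoters and enhancers, were assigned to the same genes.

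The cells were mouse embryonic stem cells of the E14Tg2A line. WT cells carry unaltered CTCF, and in CTCF-K20R cells the gene was edited with CRISPR/Cas9 so that lysine 20 of the protein became arginine. Day 0 cells of both genotypes were grown on feeder cells with LIF and 2i inhibitors, and day 4 cells were embryoid bodies grown from hanging drops with serum and without LIF. CTCF was profiled by ChIP-seq in 2 libraries for each genotype and day, and H3K27ac in 1 library for each genotype at day 4. The methods call the libraries of a group biological replicates without saying whether they were separate cultures, so p-values measure only the spread between these libraries. The labels do not say how many clones stand behind a genotype, so an effect of the edit and of a clone cannot be told apart. The lists also do not separate the maternal from the paternal copy of a site.

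The CTCF lists held between 41360 and 77657 peaks, and the first WT day 0 library stood apart with the longest list. The lists give no read totals, but per the methods each CTCF library was cut to a common number of reads before peak calling. A site without a peak may lie below the calling threshold in a shorter list. Any share of feeder cells in the day 0 libraries was not tested. Strength is the fold enrichment over local background at the summit. Over the 36440 sites called in all 8 lists, the SD of log2 fold enrichment was 0.62 to 0.75 in the WT lists and 0.94 to 1.07 in the K20R lists. Strengths were therefore compared after centring each list on its median, and again after making all 8 distributions equal (quantile normalization).

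An imprinted gene is expressed from a single parental copy. The choice between the copies is set by control regions that acquire DNA methylation in the egg or the sperm and keep it on that copy in the embryo. CTCF is a zinc finger protein that binds DNA and shapes chromosome loops, and CpG methylation within its recognition sequence can prevent binding. At H19/Igf2, CTCF on the unmethylated maternal control region insulates Igf2, a fetal growth factor gene, from enhancers that lie beyond H19, a non-coding RNA gene.

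The sequences below show where CTCF-like letters lie in the control regions and at the sites whose strength differed most. A 19-bp matrix was learned from the strongest summits of the WT day 0 lists alone, starting from the seed AGGGGGCG. Its consensus is CGGCCACCAGGGGGCGCTG. Both strands were searched, and capitals mark the match in mm10 (GRCm38), printed 5′ to 3′ on the strand of the match. The first trio lies upstream of H19 on the minus strand, and each match printed holds a CpG. It is a selection from the 5 matches found there. Those not printed start at chr7:142579260, with no CpG, and chr7:142582988. They scored higher, at 11.66 and 11.87 against 10.36, 10.2 and 10.97 for the printed ones.
H19 control region, chr7:142580762-142580780: ggatgCTACCGCGCGGTGGCAGCAtactc
H19 control region, chr7:142581788-142581806: cagggTTGCCGCACGGCGGCAGTGaagtc
H19 control region, chr7:142582032-142582050: gggagTTGCCGCGTGGTGGCAGCAaaatc

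The next trio lies in a Peg3 intron on the minus strand. These matches are near copies of each other, and the same 5 flanking bases precede each.
Peg3 control region, chr7:6727279-6727297: tttgtTGGCCACAAGGGGGTGTCTgaatt
Peg3 control region, chr7:6727401-6727419: tttgtTGGCCACAAGGGGGCATCTggtat
Peg3 control region, chr7:6727539-6727557: tttgtTGGTCACAAGGGGGCGTCTggtat

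The following matches lie in sites that were called in all 8 libraries. The Meg3 promoter holds 1 match on the plus and 1 on the minus strand in its pair of sites. The Grb10 match is on the plus strand. The Sgce, Mest and Cdkn1c matches, at sites higher in K20R at day 4, are on the minus strand, and the Dlk1 match, at a site higher in K20R at day 0, is on the plus strand.
Meg3 promoter, chr12:109542167-109542185: attgaTGGCCGCAAGAGGGCGCTGgtggc
Meg3 promoter, chr12:109543036-109543054: catagAGACCGCTAGGGGGCGCGCggccc
Grb10 start, chr11:12025862-12025880: agactTCGCCACACGGGGTCGCTGcgtgc
Peg10/Sgce start, chr6:4747196-4747214: ttggcCCGCCGCTAGGGGCAGCATgggct
Mest intron, chr6:30737123-30737141: caggcTGGCCCAGCGGGGGCGCTGcaggc
Upstream of Cdkn1c, chr7:143464076-143464094: caagtCGGCCACCAGGGGGCAGCAtgaag
Upstream of Dlk1, chr12:109437904-109437922: gagacCCGCCGGCAGGGGGCGCAGccagc

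The last matches lie in sites whose strength was lower in K20R at day 0 or day 4. Those at Commd1, Kcnq1 and Igf2r are on the minus strand, and those at Rasgrf1 and Ins2 on the plus strand. The Grb10 intron site chr11:12005715-12006031, also lower at day 0, had no match.
Commd1 start, chr11:22982267-22982285: gagctCAGCCGCTGGGCGGCAGGCcctcc
Kcnq1 intron, chr7:143152488-143152506: aaaagTAGCCACAAGATGGCAAGCaggcc
Igf2r intron, chr17:12689727-12689745: gattgTGGCCAACAGGGGGAGCATgtgaa
Rasgrf1 intron, chr9:89940624-89940642: ccattTCACCAGCAGGGGGCCCTActgac
Ins2 intron, chr7:142737123-142737141: tgaatCAACCACCAGAGGGAGACAaagac

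A match above the score that 5% of shifted sequences reach was found within 100 bp of the summit at 126 of the 163 imprinted sites (77.3%), beside 78.1% of all sites. A CpG lay inside the match at 49.2% of the imprinted sites with a match and at 40.9% of all sites with one. Among sites called in all 8 libraries these shares were alike, at 47.76% and 47.55%. Among sites called in fewer than 8 they were 50.85% and 34.5%. The best match lay wholly in repeat-masked sequence at 25 of 126 imprinted sites (19.8%), beside 38.8% of all sites. These shares describe letters only and were not tested.

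CTCF was called at 134 and 103 imprinted sites in the WT day 0 libraries, beside 77215 and 52020 of all 86652 sites. In the K20R day 0 libraries it was called at 97 and 99, beside 51550 and 51438. At day 4 the counts were 117 and 121 in WT, beside 60425 and 60795, and 85 and 102 in K20R, beside 40894 and 47057. The K20R counts lay below the WT counts on both days, and the K20R lists were also shorter. A peak was present in all 8 libraries at 75 sites (46.0%), beside 42.1% of all sites. A single library held the peak at 32 sites, and for 15 of these it was the first WT day 0 library, which had the longest list. The share of such sites among all sites was not taken.

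**Figure D1:**
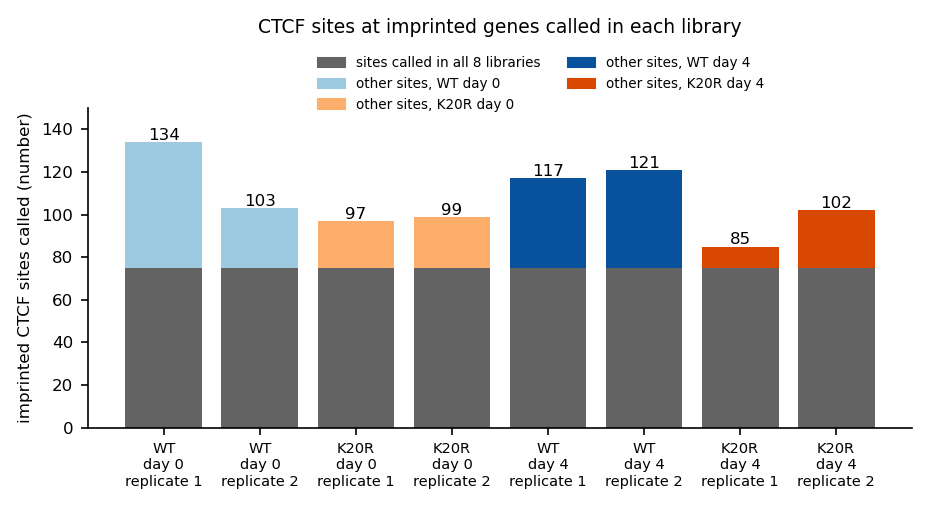
Imprinted sites with a CTCF peak in each of the 8 libraries, as a number of sites on the vertical axis, with 1 bar for each library and grey for the 75 sites called in all 8. The bars of WT run from 103 to 134 and those of K20R from 85 to 102.

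The H19 control region had no peak in any of the 4 WT libraries. The window examined, chr7:142579143-142584143, runs upstream from a point 1 kb before the H19 start. It held 5 matches to the matrix, of which 4 contained a CpG and none reached the score that 1% of shifted sequences reach. A peak at chr7:142580680-142580830 was called in the first K20R day 4 library, with a fold enrichment of 4.55. A second, at chr7:142581678-142581922, was called in the second K20R day 0 library at 6.38 and in the second K20R day 4 library at 5.24. Each of these peaks contains a printed match. No group had a peak there in both libraries, and the within-list percentile of the 3 calls was 4.2, 15.0 and 7.3. These were weak peaks of single libraries, and a genotype difference was not tested.

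The control region of Kcnq1ot1, a long antisense RNA gene whose start lies inside Kcnq1, had no peak in any library. Its window of 6 kb held 1 match. The intergenic control region between Dlk1 and Meg3 also had no peak, and its 3 matches contained no CpG. The absence of a peak here says only that none passed the threshold in these lists.

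The promoter of Meg3, a maternally expressed non-coding RNA gene, held a pair of sites called in all 8 libraries. At chr12:109541777-109542467, in a Meg3 exon 86 bp from an annotated start, fold enrichment was 29.35 and 15.46 in WT day 0, 22.5 and 25.38 in K20R day 0, 22.79 and 11.95 in WT day 4, and 20.52 and 30.96 in K20R day 4. The genotypes overlapped on both days, and on neither day did the difference pass the test. At chr12:109542605-109543182, in an exon 769 bp from such a start, it was 36.83 and 24.05 in WT day 0, 59.26 and 58.59 in K20R day 0, 20.72 and 21.95 in WT day 4, and 21.61 and 39.61 in K20R day 4. K20R was above WT at day 0 without overlap. The difference there was 0.53 on the centred log2 scale (limma, adjusted p = 0.0276) and 0.29 after quantile normalization (adjusted p = 0.232), so the call was lost in the second scaling. From day 0 to day 4 this site fell in K20R by 0.67 on the log2 scale (limma, adjusted p = 0.0101). In WT the change was -0.46 (limma, adjusted p = 0.0559), and after quantile normalization it was -0.58 (adjusted p = 0.0132), so both genotypes fell in that scaling. The window also held chr12:109539096-109539282, called in the first WT day 0 and the second WT day 4 library. Another, chr12:109543609-109543794, was called in the first WT day 0 and the second K20R day 0 library.

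The control region of Peg3, which encodes a zinc finger protein expressed from the paternal copy, carried the tandem matches shown above. The site chr7:6726995-6727963 in a Peg3 intron held 7 matches. Its fold enrichment was 28.12 and 27.13 in WT day 0, 39.68 and 36.43 in K20R day 0, 22.5 and 20.56 in WT day 4, and 32.44 and 59.92 in K20R day 4. In fold enrichment the K20R libraries stood above the WT libraries on each day, but by rank the genotypes overlapped at day 0. The difference passed at day 4, at 0.90 ± 0.21 (log2, SE; limma, adjusted p = 0.00307) and 0.66 after quantile normalization (adjusted p = 0.0327). A second site of the window, chr7:6729056-6729615, ranked between the 0.8 and 18.9 percentile of the 36440 shared sites in the 8 libraries.

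Grb10, which encodes a growth-limiting adaptor of receptor signalling, has several annotated starts and therefore several windows. The site chr11:12025504-12026037, in the UTR 447 bp from a start, ranked at 42.5 and 86.9 in WT day 0, 86.9 and 83.2 in K20R day 0, 76.6 and 75.4 in WT day 4, and 91.7 and 95.7 in K20R day 4, as percentiles among the shared sites. The first WT day 0 library lay below all others. At day 4 K20R was above WT by 0.93 ± 0.24 (log2, SE; limma, adjusted p = 0.00658), and the call was lost after quantile normalization at 0.56 (adjusted p = 0.112). The site chr11:11973277-11973766 ranked between 56.6 and 87.6 and its genotype differences did not pass. A peak at chr11:12039237-12039402 was called in the second WT day 4 library alone.

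**Figure D2:**
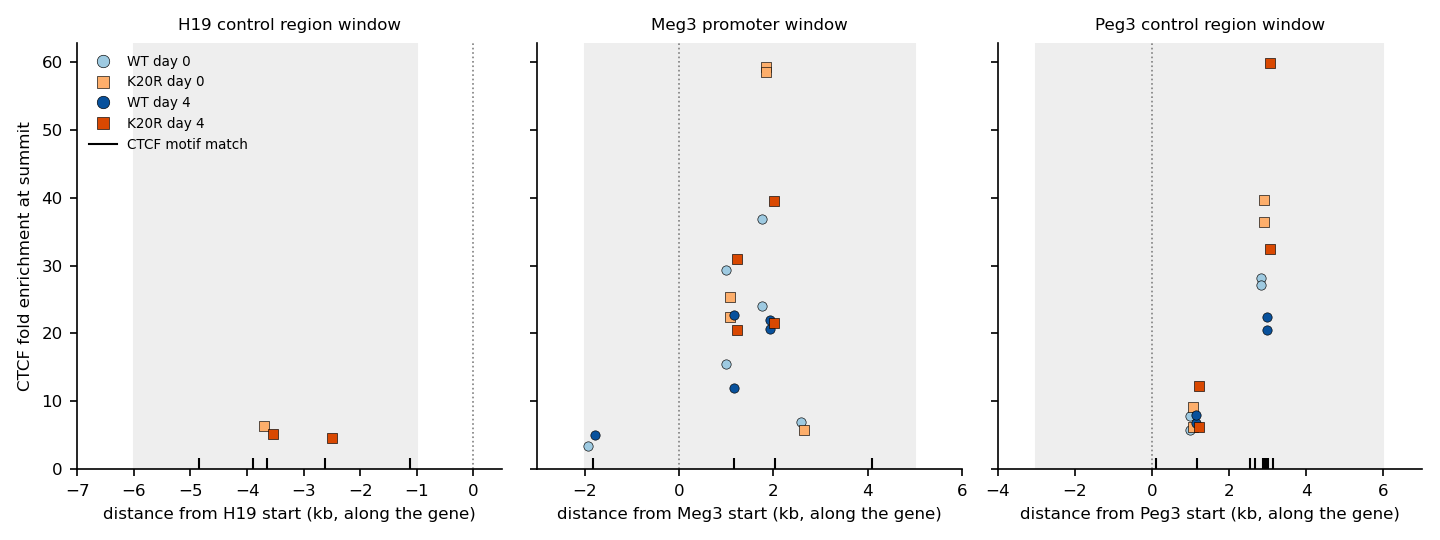
Fold enrichment of CTCF peaks on the vertical axis against distance from the gene start on the horizontal axis for H19, Meg3 and Peg3, with 1 point for each library and peak, ticks for matrix matches, shading for the window and a dotted line for the start. H19 shows isolated K20R points of 4.55 to 6.38, Meg3 and Peg3 show sites with points in all 4 groups.

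Sites were called lost when both WT libraries and neither K20R library had a peak, and gained in the reverse case. At day 0, 8 of 97 imprinted sites were lost, beside 7.69% of all sites, and 0 of 91 were gained, beside 0.426%. At day 4, 12 of 106 (11.3%) were lost, beside 18.8%, and 1 of 81 was gained, beside 0.536%. With every list shortened to its 41360 strongest peaks the day 4 counts turned to 2 lost (2.6%) and 6 gained (7.6%), beside 5.6% and 4.8% of all sites. The day 0 counts turned to 2 (2.6%) and 2 (2.6%), beside 3.2% and 3.1%, so list length moves with these calls. The counts also moved with single libraries, as did the shares of all sites. Without the second WT day 0 library the day 0 loss was 32 (23.9%), beside 29.9% of all sites. Without the first it was 12 (11.7%), beside 9.5%, and the gain was 6 (6.6%), beside 7.3%. At day 4 the loss was 24 (19.8%) and 23 (19.7%) without the first or second WT library, beside 24.8% and 24.4%. Without the second K20R library it was 23 (21.7%), beside 28.3%, and without the first the gain was 8 (7.8%), beside 4.1%.

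The 12 sites lost at day 4 were of low to middle strength, with WT day 4 fold enrichments from 4.55 to 11.95 and within-list percentiles from 5.2 to 48.5. The same sites were not all present at day 0. A total of 3 were lost on both days.

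One of these lay in an exon 75 bp from the start of Dlk1, which encodes a transmembrane inhibitor of differentiation expressed from the paternal copy. At chr12:109453531-109453846 the fold enrichment was 6.91 and 9.16 in WT day 0 and 4.56 and 5.69 in WT day 4, with no peak in K20R. Another lay in an intron of Blcap at the Nnat cluster, where chr2:157558539-157558831 had 6.91 and 6.3 in WT day 0 and 6.26 and 6.82 in WT day 4. Nnat encodes a small membrane protein of the nervous system and sits within Blcap. The last lay in a Kcnq1 intron, where chr7:143116764-143117076 had 8.63 and 4.58 in WT day 0 and 7.31 and 4.68 in WT day 4.

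Kcnq1, which encodes a potassium channel, held a further pair of sites lost at day 4, and these were seen in WT day 4 alone. The site chr7:143110810-143111079 in an intron had 9.12 and 11.95, and chr7:143108209-143108439, 40 bp from an annotated start, had 4.56 and 6.26. Neither had a peak in a day 0 library of either genotype.

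The Grb10 cluster held 3 of the sites lost at day 4. In an intron of Ddc, the gene of the enzyme that makes dopamine and serotonin, chr11:11844245-11844555 had 11.76 and 6.38 in WT day 0, 6.36 in 1 K20R day 0 library, and 10.68 and 5.62 in WT day 4. Upstream of Fignl1, chr11:11808972-11809403 had 4.02 in 1 WT day 0 library and 5.4 and 4.86 in WT day 4. At chr11:12044336-12044537, which is 5766 bp from a Grb10 start, the values were 5.75 in 1 WT day 0 library and 5.7 and 4.55 in WT day 4. All 3 lacked a peak in both K20R day 4 libraries.

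The other 4 sites lost at day 4 lay in 4 clusters. Beyond Airn, the antisense RNA gene of the Igf2r cluster, chr17:12871875-12872536 had 13.24 and 7.54 in WT day 0, 4.58 and 8.15 in K20R day 0 and 8.55 and 5.69 in WT day 4. In a Gnas intron, chr2:174307942-174308215 had 5.75 in 1 WT day 0 library and 7.41 and 7.09 in WT day 4. Gnas encodes the stimulatory G protein subunit. In a Usp29 intron of the Peg3 cluster, chr7:6928218-6928533 had 7.48 in 1 WT day 0 library and 11.4 and 6.83 in WT day 4. In an exon of Nctc1 beyond H19, chr7:142555749-142555989 had 4.01 in 1 WT and 3.57 in 1 K20R day 0 library and 6.27 and 6.26 in WT day 4. Of these 4, the Airn site was in all 4 day 0 libraries.

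The single site gained at day 4 lay in an intron of Impact, a regulator of translation, on chromosome 18. Its fold enrichment was 9.78 and 5.15 in WT day 0, 6.99 and 12.28 in K20R day 0 and 7.97 and 9.32 in K20R day 4. The peak was missing from the WT day 4 libraries, so it was shared by both genotypes at day 0.

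At 5 further places a loss was called at day 0 alone. In a Meg3 exon, chr12:109566624-109566918 had 13.81 and 11.45 in WT day 0 and 5.82 in 1 WT day 4 library. Near Commd1, whose intron holds the imprinted gene Zrsr1, chr11:22984445-22984767 had 10.58 and 4.02 in WT day 0, 6.1 and 5.28 in WT day 4 and 4.06 and 4.58 in K20R day 4. In a Commd1 intron, chr11:22917757-22918026 had 6.33 and 4.58 in WT day 0. Both K20R day 0 libraries lacked these peaks, and at day 4 both K20R libraries had one at the site near Commd1. Near Ascl2, a placental transcription factor gene, chr7:142957662-142958027 had 9.1 and 4.43 in WT day 0, 6.59 and 6.59 in WT day 4 and 5.82 in 1 K20R day 4 library. In an Inpp5f intron, chr7:128654766-128654992 had 5.65 and 4.02 in WT day 0 and 4.56 in 1 WT day 4 library. At the Meg3 exon, the Commd1 intron and the Inpp5f intron K20R had no peak at day 4 either. A day 4 loss could not be called at these places, because the WT day 4 libraries did not both have a peak.

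Strength was compared at the 75 imprinted sites called in all 8 libraries. At day 4, 28 of 75 (37.3%) differed between genotypes (limma, adjusted p below 0.05), beside 32.1% of all 36440 sites. Of these 16 were higher in K20R, beside 17.8%, and 12 were lower, beside 14.3%. Called the same way under both scalings were 17 sites (22.7%), beside 17.9%, of which 9 were higher, beside 9.87%, and 8 lower, beside 7.99%. The median difference was 0.07 over the 75 sites and 0.03 over all sites (log2). With no centring, where the median of all sites lay at 0.16, only 2 imprinted sites passed, beside 1.7% of all sites. They were those at Peg10/Sgce and Mest. The split by direction depended on the scaling. On read pileups recovered from the lists 18 sites passed, 16 higher and 2 lower, and over all sites 4976 of 8486 calls were higher. Quantile normalization gave 10 higher and 11 lower, and within-list percentiles 14 and 7. Over all sites 4081 of 7929 and 5543 of 9116 calls were higher in these settings. Without the first or the second WT day 4 library 13 and 14 sites passed.

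Peg10 and Sgce are neighbouring paternally expressed genes with a shared start region, and Peg10 derives from a retrotransposon and is needed in the placenta. The site chr6:4746589-4747403, in the Sgce UTR 1 bp from its start, ranked at 69.3 and 76.3 in WT day 0, 88.6 and 91.2 in K20R day 0, 25.1 and 34.7 in WT day 4 and 84.8 and 90.1 in K20R day 4. WT day 4 was the low group and overlapped no other. The day 4 difference was 1.59 ± 0.18 (log2, SE; limma, adjusted p = 2.2e-05) and 1.46 after quantile normalization (adjusted p = 0.000126). At day 0 it was 0.68 ± 0.18 (limma, adjusted p = 0.0097), with the call lost after quantile normalization (adjusted p = 0.0646).

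Mest encodes a hydrolase-like protein expressed from the paternal copy. The site chr6:30736643-30737307, in an intron 923 bp from an annotated start, ranked at 12.5 and 69.9 in WT day 0, 77.6 and 77.0 in K20R day 0, 14.7 and 27 in WT day 4 and 69.7 and 75 in K20R day 4. The WT day 0 libraries were far apart. K20R was higher by 1.36 ± 0.27 at day 4 (log2, SE; limma, adjusted p = 0.00113) and by 0.90 at day 0 (adjusted p = 0.0181). Without the first WT day 0 library the day 0 difference was 0.31 (adjusted p = 0.353).

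The Kcnq1 cluster held sites that differed in both directions at day 4. Upstream of Cdkn1c, a maternally expressed inhibitor of the cell cycle, chr7:143463628-143464241 ranked at 65.2 and 67.7 in WT day 0, 74.7 and 82.8 in K20R day 0, 28.9 and 22.3 in WT day 4 and 64.6 and 84.1 in K20R day 4. WT day 4 was again the low group. K20R was higher at day 4 by 1.29 ± 0.21 (log2, SE; limma, adjusted p = 0.000219).

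In a Kcnq1 intron, chr7:143152143-143152630 ranked at 37.4 and 19.6 in WT day 0, 21.7 and 20.7 in K20R day 0, 80.2 and 82.6 in WT day 4 and 13.2 and 39.0 in K20R day 4. Here WT day 4 was the high group and the other 3 groups lay below it. The day 4 difference was -1.46 ± 0.28 (log2, SE; limma, adjusted p = 0.000819).

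A pair of weaker sites was lower in K20R at day 4. In an intron of Igf2r, whose product clears Igf2, chr17:12689431-12689884 ranked at 12.7 and 17.4 in WT day 0, 0.6 and 12.0 in K20R day 0, 40.6 and 9.9 in WT day 4 and 1.5 and 2.3 in K20R day 4. Its day 4 difference of -1.39 ± 0.37 (limma, adjusted p = 0.0083) was -0.93 without the first WT day 4 library, with an adjusted p of 0.164. In an intron of Rasgrf1, an exchange factor of Ras, chr9:89940364-89940780 ranked at 19.4 and 17.4 in WT day 0, 22.1 and 27.5 in K20R day 0, 24.5 and 24.2 in WT day 4 and 5.7 and 2.1 in K20R day 4. K20R day 4 was the low group there, by -1.30 ± 0.29 (limma, adjusted p = 0.00233).

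**Figure D3:**
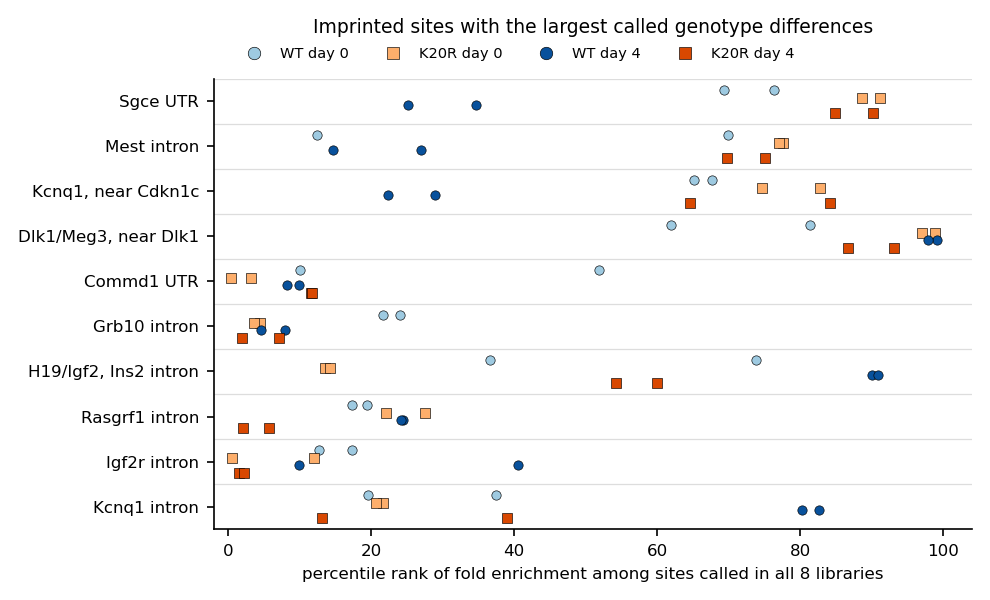
Percentile rank of fold enrichment among the 36440 shared sites on the horizontal axis for the 10 imprinted sites with the largest called genotype differences, with 1 point for each of the 8 libraries and colours for the 4 groups. At Sgce, Mest and near Cdkn1c the WT day 4 points (14.7 to 34.7) lie below those of K20R day 4 (64.6 to 90.1), and at the Kcnq1 intron the order is reversed.

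The remaining sites called higher in K20R at day 4 under both scalings lay at Usp29, Impact, Gnas, Peg3, Phlda2 and between Cdkn1c and Slc22a18. The remaining lower sites lay near Dlk1, in the Snrpn/Ube3a cluster, at Trpm5, in Kcnq1 and in Ins2. The Usp29 site ranked at 79.7 and 82.1 in WT day 0, 73.8 and 64.7 in K20R day 0, 37.5 and 44.0 in WT day 4 and 81.9 and 82.5 in K20R day 4. Its difference was 1.15 (log2; limma, adjusted p = 0.000159). The Impact site ranked at 71.3 and 72.6 in WT day 0, 67.7 and 63.9 in K20R day 0, 18.6 and 38.4 in WT day 4 and 64.2 and 70.2 in K20R day 4. Its difference was 1.01 (log2; limma, adjusted p = 0.00109), and in both cases WT day 4 was the low group.

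Between the days, 3 of 97 imprinted sites were lost in WT, beside 5.75% of all sites, and 5 of 106 were gained, beside 3.81%. In K20R 4 of 91 were lost, beside 9.1%, and 1 of 81 was gained, beside 1.18%. The change in strength between the days was also fitted within each genotype. In WT, 19 of 75 imprinted sites changed, beside 24.8% of all sites, with 12 higher at day 4, beside 12.0%, and 7 lower, beside 12.8%. In K20R 14 changed, beside 20.2%, with 8 higher, beside 10.9%, and 6 lower, beside 9.31%. Of the 9 sites called higher in K20R at day 4 under both scalings, 5 fell in WT between the days, beside 47.9% of all sites called so, and none of the 9 passed in K20R, beside 19.7% that rose and 3.22% that fell. Of the 8 called lower, 4 rose in WT, beside 23.5%, while in K20R 1 rose, beside 3.67%, and 2 fell, beside 26.5%. The WT day 4 libraries enter both contrasts, as do the K20R day 4 libraries, so these values are given side by side and are not separate evidence. Without centring 0 sites passed in either genotype.

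The values for these sites were as follows. At Peg10/Sgce the change from day 0 to day 4 was -0.87 in WT (limma, adjusted p = 0.00239) and 0.04 in K20R (adjusted p = 0.903). Upstream of Cdkn1c it was -0.84 in WT (limma, adjusted p = 0.00657) and -0.01 in K20R (adjusted p = 0.981). At Mest neither change passed, with -0.51 in WT (limma, adjusted p = 0.18) and -0.05 in K20R (adjusted p = 0.921). At the Kcnq1 intron it was 1.09 in WT (limma, adjusted p = 0.00843) and 0.06 in K20R (adjusted p = 0.906). The difference between these changes, which is the change of the genotype difference from day 0 to day 4, passed at 11 of 75 sites (limma), beside 12.9% of all sites. It was positive at 6, beside 7.07%, and negative at 5, beside 5.79%. Under both scalings 9 sites passed (12.0%), beside 11.7%.

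At day 0, 25 of 75 sites (33.3%) differed between genotypes (limma), beside 28.6% of all sites. Of these 15 were higher in K20R, beside 14.9%, and 10 lower, beside 13.7%. Under both scalings 14 were called the same way (18.7%), beside 19.5%, with 10 higher, beside 11.2%, and 4 lower, beside 8.37%. The median difference was 0.04 over the 75 sites and -0.03 over all sites. With no centring, where the median of all sites lay at 0.43, 8 sites passed, beside 8.3% of all sites. All 8 were higher, as were 2966 of the 3031 calls over all sites. On recovered pileups only 4 sites passed, 3 higher and 1 lower, beside 6.4% of all sites. Quantile normalization gave 13 higher and 4 lower, and within-list percentiles 10 and 2. Over all sites 4664 of 8696 and 4045 of 6919 calls were higher in these settings. Without the first WT library 15 sites passed, and without the first or the second K20R library 11 passed in each case.

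The largest day 0 differences lay upstream of Dlk1, in Ins2, in Grb10 and at Commd1. The site chr12:109437454-109438178, 14907 bp from the Dlk1 start, ranked at 61.9 and 81.4 in WT day 0, 98.8 and 97.0 in K20R day 0, 99.1 and 97.8 in WT day 4 and 86.7 and 93.1 in K20R day 4. It was the strongest site of the Dlk1/Meg3 cluster, and WT day 0 was its low group. K20R was higher at day 0 by 1.18 ± 0.22 (log2, SE; limma, adjusted p = 0.000724).

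Ins2 encodes an insulin and lies beside Igf2. In an annotated intron of it, chr7:142736803-142737483 ranked at 73.8 and 36.6 in WT day 0, 13.5 and 14.3 in K20R day 0, 90.0 and 90.8 in WT day 4 and 60 and 54.2 in K20R day 4. K20R was below WT on each day, and each genotype was higher at day 4. The difference was -1.26 ± 0.22 at day 0 (log2, SE; limma, adjusted p = 0.000517) and -0.66 at day 4 (adjusted p = 0.0296). On read pileups recovered from the lists, the differences shrank to -0.06 and 0.04, which ended the first call and turned the direction of the second.

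In a Grb10 intron, chr11:12005715-12006031 ranked at 24 and 21.7 in WT day 0 and at 4.5 and 3.7 in K20R day 0, and at 7.9, 4.6, 1.9 and 7.1 in the WT and K20R day 4 libraries. WT day 0 was the high group, by a difference of -1.26 ± 0.30 (limma, adjusted p = 0.00405). At Commd1, which encodes a copper-handling protein, chr11:22982010-22982541 in the UTR ranked at 10.1 and 51.8 in WT day 0, 0.4 and 3.2 in K20R day 0, 9.9 and 8.3 in WT day 4 and 11.6 and 11.7 in K20R day 4. Its difference was -1.81 ± 0.34 at day 0 (limma, adjusted p = 0.000805), and the WT day 0 libraries were far apart.

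**Figure D4:**
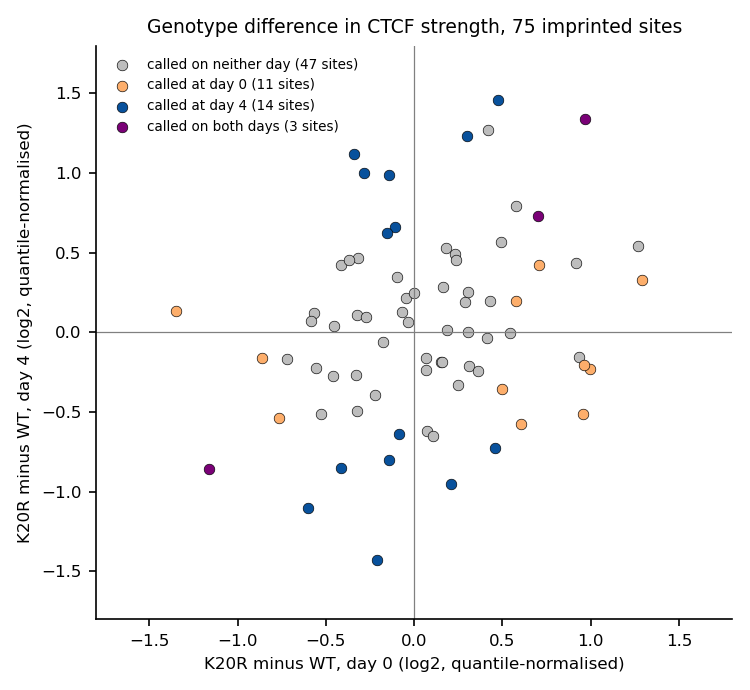
K20R minus WT difference in log2 fold enrichment after quantile normalization at day 0 (horizontal axis) and day 4 (vertical axis), with 1 point for each of the 75 imprinted sites called in all 8 libraries. Colours mark the 11 sites called under both scalings at day 0 only, the 14 at day 4 only, the 3 at both days and the 47 at neither.

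The strongest site of each cluster was chosen by mean within-list percentile over the 8 libraries, with a missing peak counted at the bottom of the scale. This rule favours sites called in all 8 libraries, and each site chosen was called in all 8. Zdbf2 had no site. By this mean, the highest were chr7:143469743-143470315 beyond Cdkn1c at 95.3, the site upstream of Dlk1 at 93.4 and chr7:128705452-128706094 in a Mcmbp intron beside Inpp5f at 91.9. Their ranks among the shared sites ran from 82.0 to 97.7, from 61.9 to 99.1 and from 76.9 to 95.7. Lower ranks were found for the strongest sites of Gnas (17 to 55.2) and Rasgrf1 (20.8 to 51.5). At Plagl1, a zinc finger gene linked to growth control, chr10:13087059-13087562 ranged from 17.8 to 79.9 and was higher in K20R at day 0 by 1.16 (log2; limma, adjusted p = 0.000394). At Zim1, chr7:6688457-6689101 ranked between 58.9 and 92.3, and at the Snrpn/Ube3a cluster chr7:62428136-62428691 ranked between 63.6 and 84.8.

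H3K27ac at day 4 had no replicates, so no test was made. WT had 76 peaks at the imprinted genes, of which 25 (32.9%) met no K20R peak, beside 36.9% of all WT peaks. K20R had 94 peaks, of which 43 (45.7%) met no WT peak, beside 46.9% of all K20R peaks. The whole K20R list was also the longer, with 45318 peaks over 66.3 Mb against 38982 over 55.7 Mb in WT. Among peaks with a -log10 q of at least 5, 0 of 25 in WT and 0 of 24 in K20R lacked a partner, beside 1.91% and 2.98%. Every imprinted peak seen in a single genotype thus had a -log10 q below 5.

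Within 3 kb of a start, 21 of the 40 genes had an H3K27ac peak in both genotypes, 17 in neither and 2 in K20R only. The share of all annotated promoters in each class was not taken, so these counts stand without a background. Those marked in K20R only were Phlda2, a maternally expressed brake on placental growth, and Mirg, a non-coding RNA gene of the Meg3 cluster. Their peaks were weak, with a fold enrichment of 3.67 and 2.95 and a -log10 q of 2.84 and 1.53. The group with no peak in either genotype included H19, Igf2, Ins2, Dlk1, Grb10, Plagl1 and Cdkn1c.

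The highest peaks of both lists overlapped at 18 of the 21 promoters marked in both, and some neighbouring genes share them. Counting each pair of peaks once, K20R had the lower fold enrichment at 13 of 15 (86.7%), beside 58.8% over all annotated promoters counted the same way. The WT and K20R values were 12.21 and 8.55 at Gnas, and 10.14 and 6.19 at Snrpn, which encodes a splicing protein. They were 7.31 and 4.94 at Inpp5f, and 6.88 and 4.6 at Zdbf2. Meg3 had 5.78 and 4.19, and the gap was small at Peg3, with 13.66 and 13.23. K20R was the higher at Ddc, with 3.79 and 6.56, and at Kcnq1ot1, with 8.41 and 8.8. At Mest, Igf2r and Cd81 the highest peaks lay at different places, so their values were not compared.

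The size of the difference depended on which list chose the peaks, while most imprinted peaks were lower in K20R under either choice. Of the 25 WT peaks with a -log10 q of at least 5, 20 (80%) were lower in K20R with a median log2 ratio of -0.21, beside 65.2% and -0.13 over all such WT peaks. Of the 24 K20R peaks, 15 (62.5%) were lower with a median of -0.06, beside 51.6% and -0.01.

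**Figure D5:**
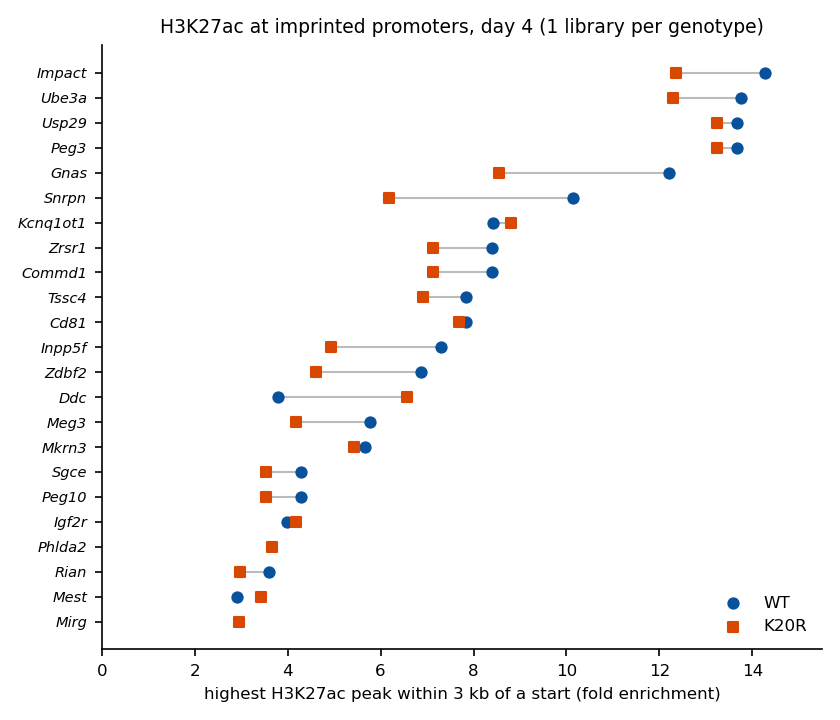
H3K27ac fold enrichment at day 4 in WT and K20R, with 1 library each, for the imprinted genes with a peak within 3 kb of a start. Lines join peaks that overlap between the lists. K20R lies below WT at Gnas (12.21 and 8.55) and Snrpn (10.14 and 6.19) and above it at Ddc (3.79 and 6.56).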

How the data were processed

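The authors trimmed reads with Trim Galore, aligned them to mm10 with Bowtie2, removed poorly mapped, duplicate and blacklisted reads, drew a common number of reads for each CTCF library and called peaks with MACS2 (broad for H3K27ac). Which input served as control is not given in the sources used here. The deposited lists give each peak's fold enrichment (a ratio to local background) and its −log10 p and −log10 q, per library. The score column deposited with them was not used. The 4 input libraries were not analysed here.

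Peaks overlapping by at least 1 bp were merged across the 8 CTCF lists. Log2 fold enrichment at the 36440 sites called in all lists was centred on each list's median and fitted with limma 3.58.1 (moderated test with trend, all 4 groups, Benjamini-Hochberg adjustment over all sites, threshold 0.05, two-sided). The test was also run on simulated data. Annotation was GENCODE M21 and sequence the RefSeq mm10 assembly (GRCm38). Motif matches were sought within 100 bp of the summit. Sites named were the control-region sites, lost or gained sites, the strongest of each cluster and the largest called differences; others named were chosen after their values were seen. Members and lists were chosen with earlier results of these data known.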

Additional observations from a re-analysis of the deposited data

Results flagged for a closer look

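At 11 of the 75 imprinted sites the K20R minus WT difference in log2 fold enrichment changed between the days (limma's contrast of the day 4 and day 0 genotype differences, adjusted p below 0.05), beside 12.9% of all sites. At 9 of them it also passed after quantile normalization. Without centring, or on recovered pileups, 0 passed, and leaving out 1 library gave 3 to 14. Values are the day 4 minus the day 0 difference.

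The values carry a sign, so a positive one need not mean a wider gap at day 4. The change was positive at Usp29 (1.24), the Impact site (1.0), the Ins2 UTR (0.88) and Peg10/Sgce (0.91). It was also positive at the Commd1 start (1.55) and the tandem Peg3 site (0.89), which were the sites that did not pass after quantile normalization (adjusted p = 0.057 and 0.0843). At the Commd1 start K20R minus WT was -1.809 at day 0 and -0.255 at day 4. The change was negative near Trpm5 (-1.32), in the Igf2r/Airn cluster (-1.12), upstream of Dlk1 (-1.23), in Zim2 (-0.96) and in a Kcnq1 intron (-0.88). Near Trpm5 the difference turned from 0.603 to -0.721, and in the Igf2r/Airn cluster from 0.774 to -0.348.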

How the results depend on the processing

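The K20R and WT comparison of calls depends on how many peaks each list holds, and the comparison of strength on how lists are scaled. With a −log10 q of at least 5, day 0 had 3 lost (3.4%) and 1 gained (1.2%) sites, beside 6.1% and 0.4% of all sites. Between the days WT lost 1 (1.1%), beside 5.2%, and K20R gained 0, beside 0.9%. With equal list lengths, 2 were lost and 2 gained at day 0, beside 3.2% and 3.1% of all sites. At day 4, 2 were lost and 6 gained, beside 5.6% and 4.8%. Between the days 2 in WT (2.6%) and 3 in K20R (3.8%) were gained, beside 5.7% and 3.4%. Windows around summits gave 1 gained at day 0 (1.1%), beside 0.6%. Within 5 kb of the gene body K20R lost 2 between the days (2.8%), beside 9.1%. In the gene body alone, 5 were lost at day 0 (7.8%) and 7 at day 4 (10.1%), beside 7.7% and 18.8%. There K20R lost 2 (3.4%) and gained 0 between the days, beside 9.1% and 1.2%. Leaving out 1 library, lost sites ranged from 8 to 32 at day 0, 12 to 24 at day 4, 3 to 24 in WT and 4 to 11 in K20R between the days; gained sites ranged from 0 to 6, 1 to 8, 5 to 12 and 1 to 11. Without centring, limma called 8 sites at day 0 and 2 at day 4, beside 8.3% and 1.7% of all sites. It called 0 for the change in genotype difference, beside 0.0%, and 0 for the WT and K20R changes between days, beside 0.2% and 1.0%. On recovered pileups it called 4, 18, 0, 3 in WT and 5 in K20R, beside 6.4%, 24.1%, 0.0%, 3.8% and 5.0% of all sites. Percentiles gave 12 at day 0, quantile normalization 9 for the K20R change between days, and sites above the median strength 8 at day 0, 15 at day 4 and 8 for the K20R change. Leaving out 1 library gave 11 to 27 sites at day 0, 13 to 30 at day 4, 3 to 14 for the change in genotype difference, 5 to 22 in WT and 3 to 18 in K20R. The main fit did not pair libraries by replicate number. Deviations of same-numbered libraries correlated at 0.322 between WT day 0 and K20R day 4, and at -0.034 to 0.028 between the other pairs of groups. With the replicate block 29 sites were called at day 0, 29 at day 4, 15 for the change in genotype difference, 21 in WT and 17 in K20R. The Ins2 intron difference at day 4 turned to 0.04 on recovered pileups. With −log10 q of at least 5, H3K27ac peaks of WT or K20R alone numbered 0 and 0. The stricter motif score was met by 39.9% of sites. Why these values moved was not tested. Each group has 2 libraries, and sites below a list's calling threshold have no value.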

Other observations

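A second list, of 35 further imprinted genes, gave 118 CTCF sites. At day 0, 6 of 78 were lost in K20R, beside 7.69% of all sites. At day 4, 13 of 82 were lost, beside 18.8%, and 0 of 60 were gained, beside 0.536%. Ordered by mean percentile over the libraries with a peak, those lost at day 4 were led by sites at Dio3, Cobl, Asb4, Calcr and Klf14. Their WT day 4 percentiles were 42.0 and 39.8 at Dio3, 34.0 and 44.4 at Cobl, 34.9 and 32.2 at Asb4, 47.8 and 53.4 at Calcr, and 29.0 and 32.2 at Klf14. Calcr encodes the calcitonin receptor and Dio3 an enzyme that inactivates thyroid hormone.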
